A study of Rattus norvegicus with 10 samples.

Results

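MiR-375-5p and miR-375-3p, the 2 mature arms of the rat microRNA (miRNA) precursor Mir375, were followed on all 10 miRNA arrays of the left ventricle. The members were chosen by name, as 2 of 761 miRNA spots, because the 5p arm had been among the brightest spots in earlier results of these data. That brightness is therefore given as a description, with no test. The Control group was 5 male Wistar rats infused with saline for 30 min, and the DEX group was 5 male Wistar rats given dexmedetomidine (DEX), an alpha2 adrenergic receptor agonist, for 30 min. According to the methods, a washout with saline followed the infusion in both groups. The methods describe sevoflurane and butorphanol anaesthesia with ventilation for the rats of the ischaemia and reperfusion model. They do not state it separately for the rats of the arrays. RNA from the anterior wall of the left ventricle of 1 rat was hybridised to each array after labelling with the 3D-Gene kit for miRNA. The age of the rats is not given in the sources used here. The samples are bulk tissue, in which fewer cells of a type and less RNA per cell cannot be told apart.

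A miRNA precursor folds into a hairpin, and the enzyme Dicer cuts a duplex from it with one strand from each side, the 5p arm and the 3p arm. One strand is usually kept in the silencing complex and the other is degraded. MiR-375 is best known from pancreatic islets, where it restrains insulin secretion and is needed for endocrine cell mass, and the strand that is described there is the 3p arm. The 5p arm is usually regarded as the minor, passenger strand.

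Both mature sequences are shown because the 2 spots differed so much, and they are printed 5′ to 3′ from RefSeq on the build GRCr8 with the seed (bases 2 to 8, which pair with targets) in capitals. Mir375 lies on the minus strand of chromosome 9, with miR-375-5p (MIMAT0017301) at chr9:83906625-83906647 and miR-375-3p (MIMAT0005307) at chr9:83906591-83906612.
rno-miR-375-5p: gCGACGAGccccucgcacaaacc
rno-miR-375-3p: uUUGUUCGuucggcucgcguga
The hairpin at chr9:83906582-83906656 is shown next, with both mature arms in capitals and the flanks and loop in lower case.
Mir375 hairpin: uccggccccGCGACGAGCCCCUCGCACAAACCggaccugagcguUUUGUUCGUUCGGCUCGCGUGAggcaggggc
The 5p arm holds bases 10 to 32 and the 3p arm bases 45 to 66 of the 75 bases, with 12 bases of loop between them. RNAfold predicted 16 pairs between the arms.

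The arms differ in base composition. MiR-375-5p has 11 C, 5 G, 6 A and 1 U in 23 bases, a GC content of 69.6%, and holds a run of 4 C. MiR-375-3p has 9 U, 7 G, 5 C and 1 A in 22 bases, a GC content of 54.5%. None of the other 692 rat mature sequences compared carries either seed at its own bases 2 to 8. The longest stretch that miR-375-5p shares with another mature miRNA is 7 bases, found in miR-208a-3p, miR-3550 and miR-6328. For miR-375-3p it is 8 bases, found in miR-382-5p, miR-668 and miR-208b-5p, and one of these shared stretches holds the letters of the whole 3p seed at another position. The sequences of the capture probes were not used here.

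The labelled tissue was checked on 6 heart muscle miRNAs (miR-1-3p, miR-133a-3p, miR-133b-3p, miR-208a-3p, miR-208b-3p and miR-499-5p), and all 6 were detected on all 10 arrays. Detection alone does not set them apart, since 405 of all 761 miRNAs were detected on every array. In the order of mean log2 signal the 6 stood at number 4, 3, 2, 87, 329 and 36. Between 483 and 533 miRNAs were detected per array. The arrays lay on 3 slides, with Control 1 to Control 4 on slide 1, Control 5 and DEX 1 to DEX 3 on slide 2, and DEX 4 and DEX 5 on slide 3, so that slide and group were largely entangled. DEX 1 was the dimmest array, its spike control spots averaging 5550 over blank where the other 9 arrays had 10309 to 15984. Values below are normalized signals, that is, the intensity of a spot above the blank mean, scaled so that the median of the miRNAs detected on an array is 25. A miRNA not detected on an array was given that array's lowest detected value, called the floor.

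MiR-375-5p was bright on every array. Its normalized signal was 5622, 5342, 4473, 4840 and 6115 on Control 1 to Control 5. It was 5509, 5162, 5573, 5621 and 5722 on DEX 1 to DEX 5. The lowest and the highest values were both Control arrays, and all 5 DEX values lay between them. The spot stood 2171 to 2945 SD of the blank spots above the blank mean, and 1069 to 1473 times the floor of its array.

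MiR-375-3p was near the limit of detection on the same arrays. It was detected on 2 of 5 Control arrays, Control 1 at 7.97 and Control 5 at 9.72, and not on Control 2, Control 3 and Control 4, which stand at the floor with 4.51, 4.18 and 3.64. It was detected on 4 of 5 DEX arrays, with 9.87 on DEX 1, 4.46 on DEX 3, 10.96 on DEX 4 and 11.6 on DEX 5, while DEX 2 stands at the floor with 3.77. No detected value exceeded 2.35 times the floor of its array. The groups overlapped, with DEX 2 and DEX 3 at the level of the undetected Control arrays.

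**Figure D1:**
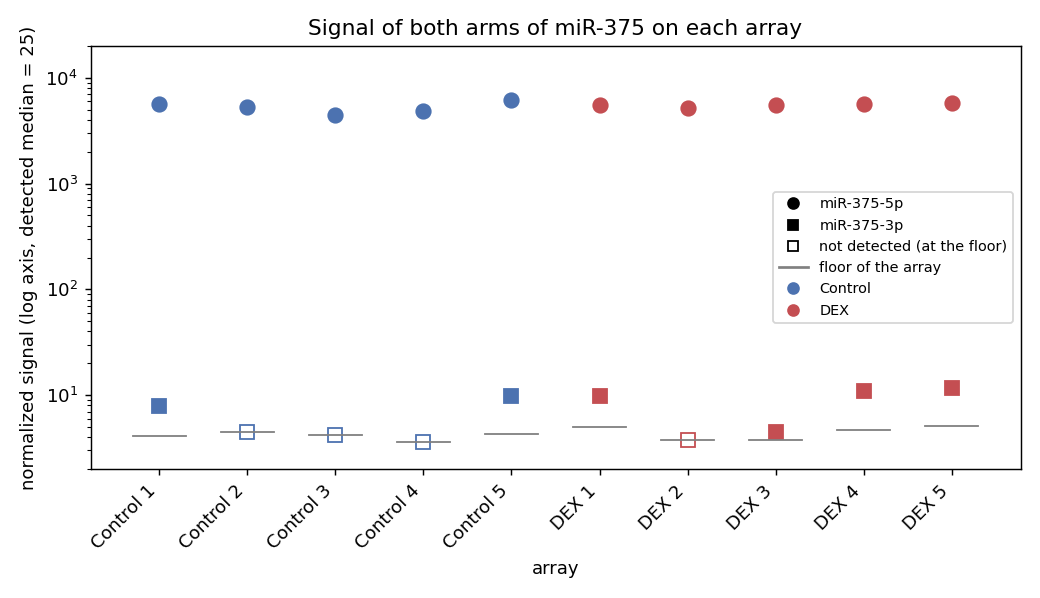
Normalized signal (log axis, median of detected miRNAs 25) of miR-375-5p (circles) and miR-375-3p (squares) on each of the 10 arrays, Control in blue and DEX in red; open squares are undetected values set to the floor and grey lines mark each array's floor. MiR-375-5p lies between 4473 and 6115 on all arrays, and miR-375-3p lies between 3.64 and 11.6, at or within 2.35 times the floor.

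The difference between the spots of the arms, log2 of the 5p signal minus log2 of the 3p signal, was 9.72 ± 0.61 (SD, n = 10 arrays, with values at the floor included). On DEX 1, the dimmest array, the 3p spot stood only 6.82 over a blank mean of 93.7. The ratio of 5p to 3p there was 558, which is imprecise. On that array 0.195% of the spots without a probe were brighter than the 3p spot. On Control 5 that share was 8.97%, and spots without a probe averaged 8.15 over blank beside 13.8 for the 3p spot. The ratio on Control 5 was therefore at least 629. On the other 4 arrays where 3p was detected, 22.2% to 93.0% of the spots without a probe were brighter than its spot. No exact ratio is resolved there. Taking all of the 3p signal over blank as 3p, the ratios there were at least 706 on Control 1, 1249 on DEX 3, 513 on DEX 4 and 494 on DEX 5. On Control 2, Control 3, Control 4 and DEX 2 the 3p arm stood at the floor, and the ratios were at least 1185, 1069, 1331 and 1368. The 2 spots carry different probes, and probes differ in how strongly they bind. The ratio is therefore one of spot signals and not of the number of molecules of each arm. Without any subtraction of background, the 5p spot was 38.8 to 72.5 times as bright as the 3p spot.

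In the order of mean log2 signal, miR-375-5p was number 5 of 761 spots and miR-375-3p number 450. MiR-375-5p held 2.68% to 3.47% of the summed miRNA signal of an array. The 4 brighter spots were miR-1b, miR-133b-3p, miR-133a-3p and miR-1-3p, all miRNAs of striated muscle. Each of them was brighter than miR-375-5p on all 10 arrays. The mature sequences of miR-1b and miR-1-3p differ in a single base, as do those of miR-133a-3p and miR-133b-3p. Whether the spots of such a pair report separate miRNAs was not tested. The mature sequences of the 2 brightest are shown to set their composition beside that of miR-375-5p, with the seed in capitals as above.
rno-miR-1b: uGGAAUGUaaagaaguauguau
rno-miR-133b-3p: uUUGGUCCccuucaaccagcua
MiR-1b has no C and a GC content of 27.3%, and miR-133b-3p has one of 50%, against 69.6% for miR-375-5p.

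The spots next to miR-375-5p in that order were close to it. Next above, miR-1-3p had a mean normalized signal of 7981 ± 1572 (SD, n = 10) against 5398 ± 470 for miR-375-5p. Next below, the endothelial miR-126a-3p had 4786 ± 738 and miR-30c-5p, abundant in heart muscle, had 4742 ± 822. MiR-126a-3p ranged from 3917 to 6199 and miR-30c-5p from 3578 to 6416, so their ranges overlapped that of miR-375-5p. Both were dimmer than miR-375-5p on 9 of 10 arrays. The exception was DEX 1, where miR-375-5p was number 7, while it was number 5 on each of the other 9 arrays. MiR-26a-5p, at number 8, was dimmer on all 10 arrays.

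The spots next to miR-375-3p were all close to the floor and had means from 6.61 (miR-1839-5p) to 7.15 (miR-335), against 7.07 ± 3.26 (SD, n = 10) for miR-375-3p. They were miR-3571, miR-3586-5p and miR-325-5p above it and miR-335, miR-1839-5p and miR-345-3p below it. Their order is not resolved, since the spread of each over arrays was larger than the distances between them.

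**Figure D2:**
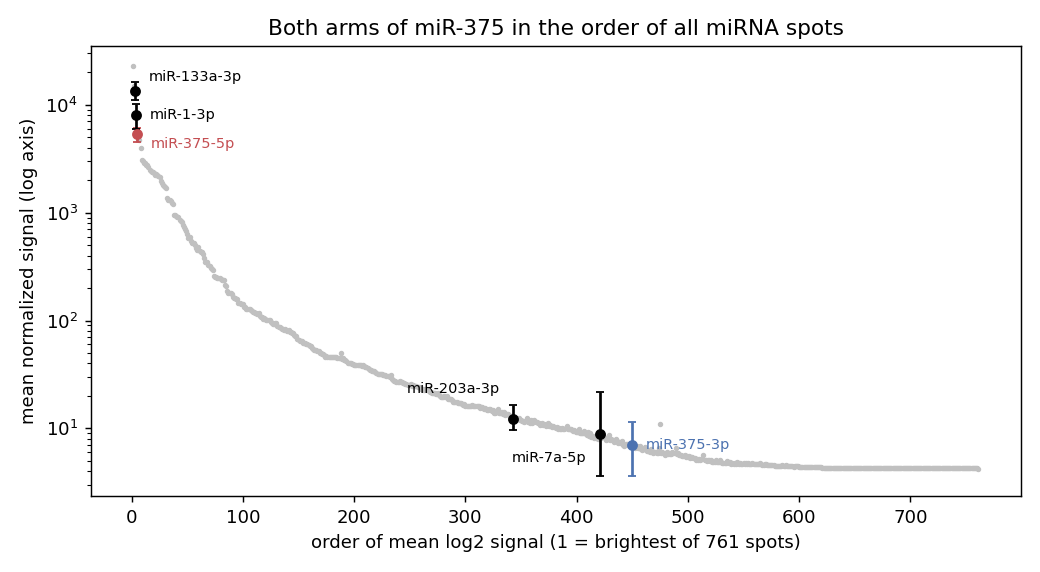
Mean normalized signal (log axis) of 761 miRNA spots against their order of mean log2 signal; bars on the named miRNAs run from the lowest to the highest of 10 arrays. MiR-375-5p is number 5, just under the muscle miRNAs miR-133a-3p and miR-1-3p, and miR-375-3p is number 450, near miR-7a-5p at 421.

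Other precursors were set beside Mir375. Both arms of 281 precursors were on the array, and each difference compares 2 probes, so it is given as a description of spot signals. Mir375, at 9.72, was among the pairs with the highest differences in favour of 5p, with miR-26a (log2 difference 8.92), miR-30d (8.65), miR-16 (8.53) and miR-30b (8.15), whose 5p arms are the strands commonly described as functional. The 3p spots of these 5 pairs were detected on 6, 8, 5, 4 and 9 of the 10 arrays, so their differences include lower bounds and their order is not resolved. In the opposite direction stood miR-133b (-11.62) and miR-1 (-10.76), whose 5p spots were detected on 4 and 2 arrays. The median size over the 281 pairs was 1.53, and the 5p spot was brighter in 141 pairs and the 3p spot in 124.

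The 3 heart muscle precursors chosen for comparison each favoured the strand usually described as functional. MiR-499, encoded in an intron of the slow myosin gene Myh7b, had a log2 difference of 5.34 ± 0.14 in favour of 5p (SD, n = 10). MiR-133a had -5.34 ± 0.12 and miR-1 had -10.76 ± 0.30, both in favour of 3p. The spread over arrays of the Mir375 difference, 0.61, was larger than that of these 3, with the 3p arm between the floor and 2.35 times the floor. Dim arms of other pairs also stood at or near the floor, so a difference that involves an undetected arm is a lower bound.

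**Figure D3:**
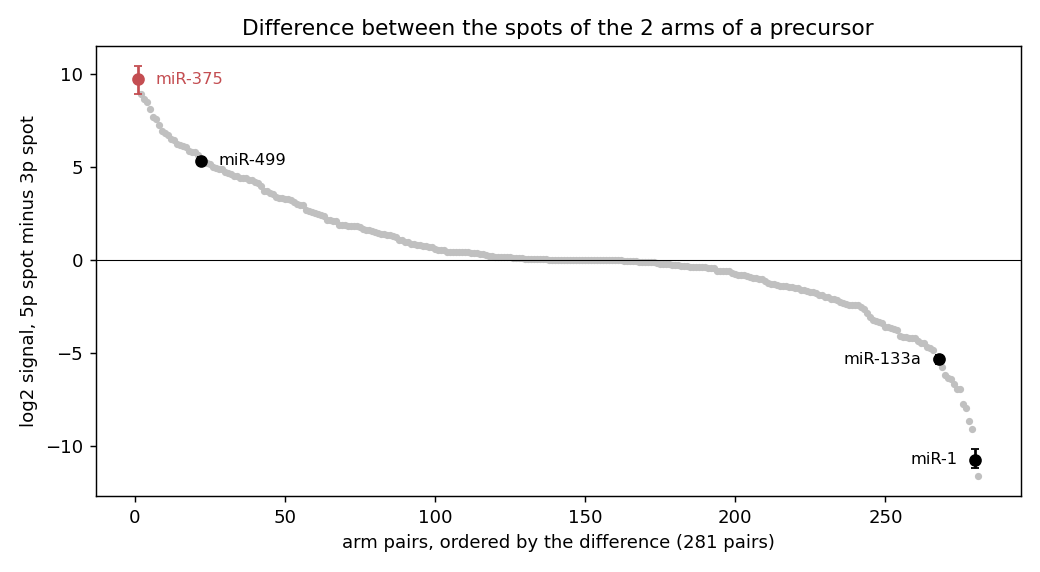
Mean difference in log2 signal between the 5p spot and the 3p spot for 281 precursors with both arms on the array, ordered from the largest; bars on the named precursors run from the lowest to the highest of 10 arrays. Mir375 stands at 9.72, near the end in favour of 5p where the order is not resolved, and miR-1 stands at -10.76 in favour of 3p.

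The comparison between groups asks whether DEX changed the abundance of miRNAs in the heart, and its contrast was not used to choose the arms. For neither arm was the difference larger than the replicate spread. Control arrays averaged 5278 ± 645 for miR-375-5p and DEX arrays 5517 ± 213 (normalized signal, SD, n = 5 each). Its log2 difference was 0.07 ± 0.13 (SE, 95% interval -0.21 to 0.35, limma adjusted p = 0.914), and the exact permutation test gave p = 0.437. As a ratio of DEX to Control, the interval runs from 0.866 to 1.27, and values in that range are compatible with these arrays. The direction was not stable. The log2 difference was -0.57 with normexp and an offset of 50, -0.025 with no background correction and -0.13 with no scaling. It was -0.054 with quantile normalization and -0.18 with slide as a fixed term. The last of these rests on slide 2, which holds 1 Control array.

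Control arrays averaged 6.003 ± 2.68 for miR-375-3p and DEX arrays 8.13 ± 3.72 (normalized signal with values at the floor included, SD, n = 5 each). Its log2 difference was 0.40 ± 0.37 (SE, 95% interval -0.41 to 1.20, limma adjusted p = 0.905, exact permutation test p = 0.286). DEX was higher on average, with 3 of 5 DEX arrays above the highest Control array, Control 5 at 9.72. Of these, DEX 1 stood at 9.87, and before scaling its spot was dimmer than that of Control 5 (6.82 against 13.8 over blank). On DEX 4 and DEX 5 the spot was dimmer than the mean of the spots without a probe. The number of arrays on which miR-375-3p was detected, 4 of 5 against 2 of 5, gave p = 0.524 in Fisher's exact test (two-sided). As a ratio of DEX to Control, the interval runs from 0.754 to 2.30, wider than that of miR-375-5p.

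Of the 503 miRNAs tested in the same fit, 0 (0% of those tested) passed an adjusted p of 0.05, with a smallest adjusted p of 0.115, and 15 (2.98%) had an unadjusted p under 0.05 in limma. Neither arm of miR-375 was among the 15, with unadjusted p of 0.587 for 5p and 0.304 for 3p. The groups did not overlap for 3 miRNAs (0.596%), and both arms overlapped. Over the whole set of tested miRNAs the log2 difference had a median of 0.044. All p-values rest on these arrays, 1 per rat, on which slide and group were largely entangled. Limma moderates the spread of each miRNA over all tested miRNAs. The smallest p that the exact permutation test can give is 0.00794.

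**Figure D4:**
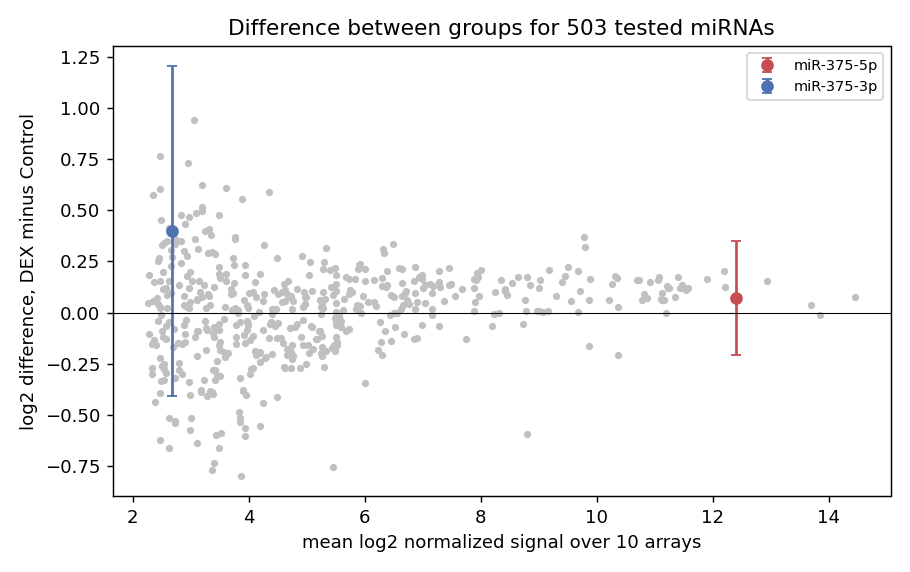
Log2 difference between groups (DEX minus Control) against mean log2 normalized signal for 503 tested miRNAs (grey), with both arms of miR-375 marked; bars are 95% intervals from limma. The interval of miR-375-5p runs from -0.21 to 0.35 and that of miR-375-3p from -0.41 to 1.20, and both include 0.

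The difference between the arms was also compared between groups, since the array's scaling drops out of it. On the log2 scale it averaged 9.88 ± 0.48 over Control arrays and 9.56 ± 0.73 over DEX arrays (SD, n = 5 each), a difference of -0.33 (exact permutation test, p = 0.365). The 2 smallest differences were those of DEX 4 (9.002) and DEX 5 (8.95), the arrays on slide 3. The 4 arrays with 3p at the floor (Control 2, Control 3, Control 4 and DEX 2) give lower bounds of 10.06 to 10.42, whose order is not resolved.

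The slides matter for miR-375-3p. Over the blank mean, its spot stood at 23.48 on DEX 4 and 19.96 on DEX 5, while the other 8 arrays ranged from 3.67 to 13.8. Spots without any probe were raised on the same arrays, their means over blank reaching 40.0 (DEX 4) and 29.4 (DEX 5) where the others ranged from -0.61 to 10.8. The spot of miR-375-3p thus was dimmer than the mean of the probe-free spots on both arrays, and above that mean on 5 of 10 arrays in all. Their part in the values of miR-375-3p was not tested. Without DEX 4 and DEX 5 the log2 difference of miR-375-3p was -0.016 in place of 0.40. Within slide 2, with 1 Control array, it was -0.82, and that of miR-375-5p was -0.18. The fit with slide as a fixed term gives the same values, since only slide 2 holds both groups.

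With the probe-free mean taken away in place of the blank mean, and no floor, the Control mean of miR-375-3p was 0.32 ± 2.73 and the DEX mean -0.14 ± 7.20 (SD, 5 arrays each, linear scale, exact permutation test p = 0.897). The share of the 513 probe-free spots that were brighter than the miR-375-3p spot was 0.195% on DEX 1 and 8.97% on Control 5. On the other 8 arrays it was 22.2% (Control 1) to 93.0% (DEX 4). On those 8 arrays the miR-375-3p spot lay within the range of spots that carry no probe.

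**Figure D5:**
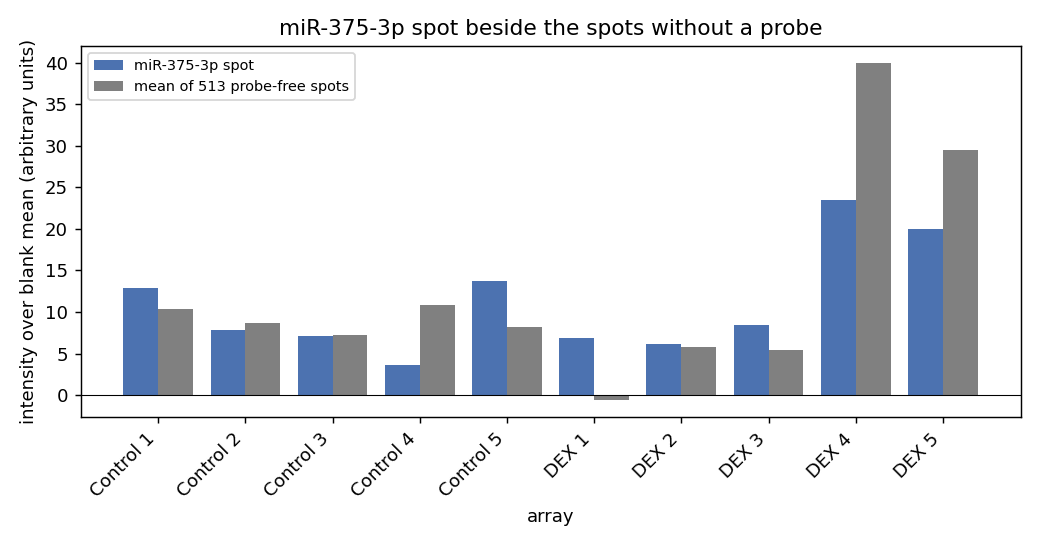
Intensity over the blank mean (arbitrary units) of the miR-375-3p spot (blue) and of the mean of 513 probe-free spots (grey) on each array. Both are highest on DEX 4 and DEX 5, where the probe-free mean (40.0 and 29.4) exceeds the miR-375-3p spot (23.48 and 19.96).

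After scaling, miR-375-5p varied little between arrays. Its SD within groups on the log2 scale was 0.13, the smallest among the 50 brightest miRNAs, whose median was 0.22. By group it was 0.18 in Control and 0.057 in DEX. The small spread depended on the scaling, since the SD over the 10 arrays was 8.71% of the mean after scaling and 23.3% before it. The limma SE of the group difference was 0.13 here, 0.40 with normexp and 0.35 with no scaling. That SE is moderated over all tested miRNAs, so it is not the spread of miR-375-5p alone. Before scaling, its spot intensity was 3900 on DEX 1 and 8805 to 12217 on the other 9 arrays, and DEX 1 was also the array with the dimmest spike control spots. The local background that the scanner recorded around the spot was 1204 to 7633, or 13.0% to 72.3% of the spot itself, highest on DEX 2. Around the miR-375-3p spot it was 87.5 to 179. The local background was thus higher beside the bright spot, and it was not subtracted.

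Over the 10 arrays, 5 relations of miR-375-5p with other measures were computed. With miR-375-3p, Pearson's r was 0.73 (permutation p = 0.00982, adjusted 0.0299) and Spearman's rho 0.77 (permutation p = 0.0131, adjusted 0.0654). It was 0.72 without DEX 4 and DEX 5, 0.88 within Control and 0.75 within DEX, with 5 arrays each. The slides held 4, 4 and 2 arrays, too few for a correlation within a slide. Both arms carry the same scaling factor of the array and 4 of the 10 miR-375-3p values are at the floor. The median r of miR-375-5p with the 404 other miRNAs detected on every array was 0.46.

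With miR-1-3p, r was 0.74 (permutation p = 0.0120, adjusted 0.0299) and rho 0.62 (permutation p = 0.0603, adjusted 0.151), but it was 0.96 within Control and 0.20 within DEX. Without DEX 1 and Control 5 r was 0.72. With miR-133a-3p, r was 0.52 (permutation p = 0.123, adjusted 0.205) and rho 0.42 (permutation p = 0.233, adjusted 0.388), with r of 0.89 within Control and -0.11 within DEX, and 0.55 without Control 4 and DEX 3. The difference between the groups in these relations was not tested. With the spike control spots r was -0.047 (permutation p = 0.879, adjusted 0.879), or 0.12 without DEX 1 and Control 2, and rho was 0.15 (permutation p = 0.682, adjusted 0.682). With the probe-free spots r was 0.25 (permutation p = 0.486, adjusted 0.607), or -0.14 without DEX 4 and DEX 5, and rho was 0.30 (permutation p = 0.409, adjusted 0.512). Neither of these relations with control spots passed the threshold.

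The miRNAs whose log2 signal over the 10 arrays was most like that of miR-375-5p were miR-347 (r = 0.94), miR-3072 (0.92), miR-208a-5p (0.90), miR-361-3p (0.89) and miR-125a-3p (0.88). Of the 404 miRNAs detected on every array, 31 had r above 0.8 with it. MiR-347 was itself bright, at number 13, while miR-208a-5p, the partner arm of the myosin-encoded miR-208a-3p, was at number 176. For miR-375-3p the most alike were miR-874-3p (0.90), miR-25-3p (0.87), miR-291a-5p (0.86), miR-532-5p (0.86) and miR-26a-5p (0.85). Likeness is given as a description of 10 arrays, without a test, and the 3p values include 4 at the floor.

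GC content was compared with brightness across the 685 spots with a RefSeq mature sequence. MiR-375-5p was the brightest of the 23 miRNAs with a GC content at or above its own, and the next were miR-762 at number 39 and miR-3584-5p at number 46. Of the 23, 19 (82.6%) were detected on every array, against 52.6% of the other 662. Their median normalized signal was 64.0 against 9.86 for the others. Across the 685 miRNAs, which are not independent replicates and whose probes differ, Spearman's rho of GC content with mean log2 signal was 0.32. Among the 43 of the 50 brightest spots that had a sequence, the median GC content was 45.5%, close to the 47.8% of all 685.

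Other miRNAs of the tissues where miR-375 is best known were far dimmer than miR-375-5p in the same hearts. For comparison, 405 of all 761 miRNAs were detected on every array. The median normalized signal of the 662 miRNAs with a GC content below that of miR-375-5p was 9.86. Of the 7 islet miRNAs (miR-7a-5p, miR-7b, miR-184, miR-182, miR-183-5p, miR-96-5p and miR-335), 0 were detected on all arrays and 2, miR-7b and miR-183-5p, on none. The brightest was miR-7a-5p, a repressor of insulin secretion in beta cells, with a mean of 8.84 ± 5.21 (SD, n = 10) and detection on 9 arrays. The summed level of the list was 25.5 to 43.8 in Control and 28.9 to 62.2 in DEX, with a floor of 3.64 to 5.09 for each undetected member.

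Of the 7 epithelial miRNAs (miR-200a-3p, miR-200b-3p, miR-200c-3p, miR-141-3p, miR-429, miR-203a-3p and miR-205), 1 was detected on all arrays, miR-203a-3p with 12.2 ± 1.79. MiR-200b-3p and miR-429 were detected on 9 arrays each and miR-141-3p on 8. MiR-200a-3p was detected on 4, miR-205 on 2 and miR-200c-3p on 1. Of the 3 exocrine pancreas miRNAs (miR-216a-5p, miR-216b-5p and miR-217-5p), 0 were detected on all arrays and miR-217-5p on none. Summed levels were 41.8 to 57.2 in Control and 40.1 to 64.6 in DEX for the epithelial list. They were 10.9 to 17.8 in Control and 11.3 to 16.2 in DEX for the exocrine list. None of the 7 tested members of the 3 lists differed between groups after adjustment, and 0 had an unadjusted p under 0.05, against 2.98% of all tested miRNAs. The median log2 difference was 0.48 over the 2 tested islet members, -0.10 over the 4 tested epithelial members and -0.22 for the 1 tested exocrine member.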

How the data were processed

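Both arms of miR-375 and all lists were chosen with earlier results of these data known. The study hybridised total RNA of 10 rat hearts to 1-colour 3D-Gene Rat miRNA Oligo chips. The deposited scanner files hold the median spot intensity and local background intensity at 635 nm, merged from 3 gain settings, with no background removed, per the file headers. The deposited series value table holds scores that the authors scaled to a median of 25 and rounded, with empty cells for undetected miRNAs. Versions of the extraction software are not given in the sources used here.

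From the spot intensities, the mean of the blank spots (5% trimmed at each end) was subtracted, each array was scaled to a median of 25 over its detected miRNAs, the lowest detected value stood in for a miRNA not detected, and log2 was taken. Detection was taken from the series value table, and 2 of 7610 calls differed from a limit of 2 SD above blank. The authors' scores were recovered within 0.51 for 99.8% of 5038 values when the median of the 405 miRNAs detected on every array was set to 25, and that scaling was one of the alternatives.

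Control and DEX were compared with limma 3.58.1 (R 4.3.3) on 503 miRNAs detected on at least 5 arrays, with Benjamini-Hochberg adjustment at 0.05, and with exact permutation tests (two-sided) for single values. Correlations used 100000 permutations (scipy 1.17.1). For the probe-free spots the linear mean was used, since it was below 0 on DEX 1, in place of the log2 value first planned. Each miRNA had 1 spot, so no error within an array is known, and the number of arrays limits the precision. Pairs were predicted with RNAfold (ViennaRNA 2.7.2), and 685 miRNAs were matched by name to RefSeq (GRCr8). Named miRNAs were both arms, their neighbours in brightness, the 5 most alike in pattern, the 5 largest differences between arms in favour of 5p, the heart muscle pairs and list members detected on all arrays. MiR-7a-5p, miR-7b, miR-183-5p, miR-217-5p, miR-133b as a pair, miR-762 and miR-3584-5p were named after their values were seen. Alternatives covered background correction, scaling, detection, slide, replicate block and leaving out each array. The scripts were tested on simulated data.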

Additional observations from a re-analysis of the deposited data

Results flagged for a closer look

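Single arrays far from their group were looked for in 11 groups of 5 arrays, and both values marked were of DEX 1. The rank of miR-375-5p among all spots was 7 on DEX 1 and 5 on the other 4 DEX arrays. Its gap over range of 1 (critical value 0.71) follows by construction, since the rank is a whole number tied on those 4 arrays, and it is no test. The median detected signal over blank was 17.3 on DEX 1, and its gap to the nearest DEX array on the log2 scale was 0.809 of the group's range, where chance marks about 1 in 20 groups. After scaling, the normalized signal of miR-375-5p on DEX 1, 5509, lay between those of the other DEX arrays. A part of the array's dimness in the rank was not tested.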

How the results depend on the processing

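No call of either arm changed under 28 alternatives, with adjusted p of 0.647 to 0.996 for miR-375-5p and 0.620 to 0.996 for miR-375-3p in limma. The direction did change. The log2 difference of miR-375-5p between DEX and Control was -0.57 with normexp and an offset of 50, -0.025 with no background correction, -0.13 with no scaling, -0.054 with quantile normalization and -0.18 with slide as a fixed term. That of miR-375-3p was -0.025 with undetected values missing, -0.82 with slide as a fixed term and -0.016 without both arrays of slide 3. On the linear scale with probe-free spots in place of blank spots (chosen after seeing the data) it was -0.47. With slide as a fixed term the estimates of both arms rest on slide 2, which holds 1 Control array. The difference of the arm difference was 0.061 without slide 3 and 0.65 within slide 2. The arm difference over all arrays was 6.15 with normexp and 5.84 with no background correction, and miR-375-5p was number 3 by mean signal with normexp. The causes were not tested. Leaving out each array in turn gave 0.014 to 0.13 for miR-375-5p, 0.23 to 0.64 for miR-375-3p, -0.54 to -0.17 for the difference of the arm difference, 9.64 to 9.80 for the arm difference and number 5 throughout. MiR-375-3p was highest without DEX 2 (0.64) and without Control 5 (0.60) among these, and was 0.64 with the floor set only at or below 0 (also chosen after seeing the data). Over 27 alternatives, 0 of the tested miRNAs were called, with 7 to 36 at an unadjusted p under 0.05. Same-numbered arrays correlated at -0.072 to 0.13 and 2 of 5 correlated best with their own number. These few correlations cannot decide whether the replicate numbers pair rats. With the replicate block the differences stayed 0.07 and 0.40 (limma adjusted p 0.807 and 0.674), with 35 miRNAs at an unadjusted p under 0.05 in place of 15. With only miRNAs detected on all arrays, miR-375-3p has no value.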
